A study of Mus musculus with 30 samples.

Results

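The Ly6 cluster of mouse chromosome 15 was examined for acetylation of lysine 27 of histone H3 (H3K27ac) in lung adenocarcinoma cells. The members were 9 protein-coding genes chosen by name, Ly6a, Ly6e, Ly6c1, Ly6c2, Ly6i, Ly6d, Ly6k, Ly6g and Ly6h, out of 21951 protein-coding genes and 55450 annotated genes in all. A peak was assigned to a gene when it overlapped the 2.5 kb on either side of any annotated transcription start site of that gene, and the neighbourhood of a gene reached 50 kb beyond its ends. The series holds 30 samples in 12 groups, of which 9 H3K27ac samples in 4 groups are described here and 21 samples were not analysed here. CK1750 and Tnm2 are mouse lung adenocarcinoma cell lines, and the genotype of neither is given in the labels. Each line was cultured with DMSO, the solvent control, or with UNC0638 at 1 µM, which inhibits the H3K9 methyltransferases G9a and Glp. CK1750 had 3 samples with DMSO, under 2 replicate numbers because 1 replicate was sequenced again, and 2 with UNC0638 that carry 1 replicate number. Tnm2 had 2 samples with each, under 2 replicate numbers. The study's methods give another number of replicates for ChIP-seq, and this was not resolved.

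Ly6 proteins are small cell-surface or secreted proteins built on a 3-fingered, disulfide-bonded fold, and most are held in the membrane by a lipid anchor. Their genes lie in tandem copies, several of which arose recently in rodents, so neighbouring members resemble each other in sequence. Ly6a encodes Sca-1, a surface antigen used to enrich stem and progenitor cells of several mouse tissues and tumor-propagating cells of mouse lung adenocarcinoma. H3K27ac marks active promoters and enhancers, and the question put to the peak lists was which members carry it, in which line, and whether the pattern differs with G9a/Glp inhibition.

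Each group was represented by 1 list of peaks made by the authors, so no value has a replicate spread and differences between groups are given without a test. The lists held 27367 peaks for CK1750 with DMSO, 24601 for CK1750 with UNC0638, 30641 for Tnm2 with DMSO and 18794 for Tnm2 with UNC0638. A peak list carries no read totals, so sequencing depth is unknown. The score of a peak is -10 log10 of its P value as the peak caller gave it and begins at 50 in these lists. Scores depend on depth, so each is given with its percentile, the percent of peaks in the same list with a lower score. Markers were checked at the same start-site window. Of 6 epithelial genes, 5, 4, 5 and 5 had a peak in the 4 lists in the order above, Epcam having none in any list. Of 4 lung lineage genes, 3, 3, 3 and 4 had one, with Nkx2-1, Sftpc and Foxa2 marked in every list. None of 6 immune genes, among them Ptprc and Spi1, had a peak in any list, and 1 of 3 endothelial genes, Pecam1, had a peak in both Tnm2 lists and in neither CK1750 list.

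The members with a start-site peak were fewer in Tnm2 than in CK1750 and fewer with UNC0638 than with DMSO in both lines, and part of this rests on weak peaks. With scores of at least 100 the counts were 3, 3, 3 and 1 in the 4 lists, and with equal numbers of peaks 3, 3, 3 and 2, so only the lower count of Tnm2 with UNC0638 was left. Ly6a, Ly6c1, Ly6e, Ly6g and Ly6i had one in CK1750 with DMSO, 5 of 9 members or 55.6% (Wilson 95% interval 26.7 to 81.1, which covers counting error only). All protein-coding genes had one in 50% of cases in that list and all annotated genes in 26.8%. With UNC0638, 4 of 9 members of CK1750 were marked, Ly6i having dropped out (44.4%, interval 18.9 to 73.3), beside 49.1% of protein-coding and 26.3% of all annotated genes. In Tnm2 with DMSO 3 of 9 were marked, Ly6a, Ly6c1 and Ly6e (33.3%, interval 12.1 to 64.6), beside 49.4% and 26.9%. In Tnm2 with UNC0638 only Ly6a and Ly6c1 were marked, 2 of 9 (22.2%, interval 6.32 to 54.7), beside 41.3% and 22.0%. Every one of these intervals contains the protein-coding share. Both Ly6a and Ly6c1 had a peak in all 4 lists, as did 39.2% of protein-coding genes. Ly6c2, Ly6d, Ly6k and Ly6h had no start-site peak in any list.

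**Figure D1:**
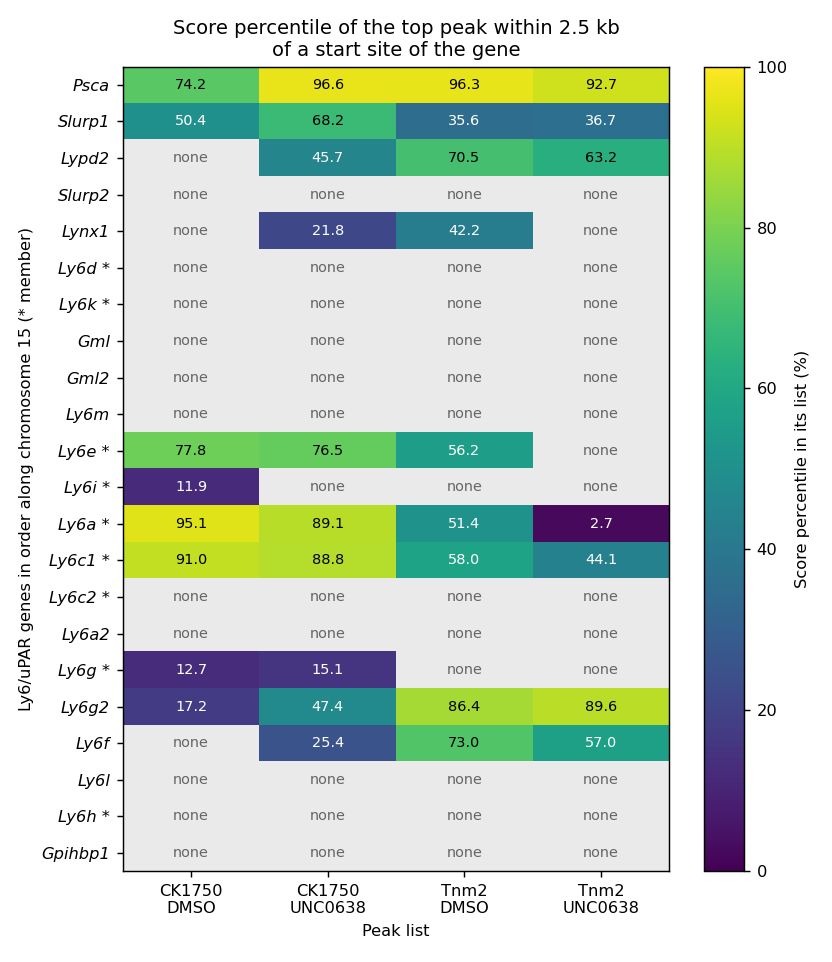
Score percentile of the highest-scoring peak within 2.5 kb of a start site, for 22 Ly6/uPAR family genes in their order along chromosome 15 (rows, members starred) in each of the 4 lists (columns), with grey for no peak. Ly6a runs from 95.1 in CK1750 with DMSO to 2.72 in Tnm2 with UNC0638, while Ly6c2, Ly6d, Ly6k and Ly6h are grey throughout.

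Ly6a, on the minus strand at chr15:74994877-74998031 (mm10, used for all positions here), was the most strongly marked member in CK1750. In CK1750 with DMSO, a peak of 4512 bp (chr15:74996334-75000845) covered the start site with a score of 2044.91, rank 1332 from the top and percentile 95.1. By width this peak stood at percentile 99.7 of its list. With UNC0638 the corresponding peak of CK1750 was 4631 bp wide (chr15:74996121-75000751), had a score of 1111.22 and stood at rank 2685 and percentile 89.1. A second, weaker peak lay in the 3' part of the gene in each CK1750 list, at percentile 55.3 with DMSO and 46.7 with UNC0638. In CK1750 the peaks filled 98.5% of the 5398 bp start-site window with DMSO and 95.7% with UNC0638, so the locus was covered almost throughout under both conditions.

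In Tnm2 the same locus was broken into small peaks. With DMSO there were 3, of 1000 bp inside the gene (score 105.35, percentile 39.5), of 608 bp over the start site (score 51.12, percentile 1.89) and of 1565 bp beginning 0.681 kb upstream (score 146.15, percentile 51.4). The peak over the start site itself was thus close to the calling cutoff. With UNC0638 a single peak was left, 715 bp wide (chr15:74995180-74995894, score 52.03, percentile 2.72, rank 18281 of 18794), and it lay 1.74 kb inside the gene, with none over the start site. Peaks covered 52.1% of the window in Tnm2 with DMSO and 13.2% with UNC0638. The Ly6a locus therefore had less called H3K27ac in Tnm2 than in CK1750 under both treatments. The paper reports that Sca-1 protein and mRNA rose with UNC0638. It describes a greater protein difference in lines with low Sca-1, TnM2 among them. By ChIP-PCR, the paper also reports less dimethylation of H3K9 at the Sca-1 start site in adenocarcinoma cells with UNC0638. Neither expression nor that mark was analysed here, and called H3K27ac is a different measure.

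Between treatments, the Ly6a percentile was lower with UNC0638 than with DMSO in CK1750 (difference -6.05 points) at a nearly equal summed peak width (ratio 1.01). Over the 10445 protein-coding genes with a start-site peak in both CK1750 lists, the median difference was -2.24, with 95% of genes between -28.6 and 18.1. In Tnm2 the difference was -48.7, against a median of -9.52 and a range of -52.9 to 7.19 for 95% of 8926 genes. The summed width of Ly6a in Tnm2 fell to a ratio of 0.225, against a median of 0.896 and 95% of genes between 0.416 and 1.47. Among genes with a peak in both lists, the fall in percentile was thus inside the range of 95% and the fall in width outside it. These ranges leave out the 17.7% of protein-coding genes marked in Tnm2 with DMSO that had no peak with UNC0638. Being outside the width range therefore does not set Ly6a apart from all marked genes. Between lines, the Ly6a percentile was 43.7 points higher in CK1750 than in Tnm2 with DMSO, where the median over 10157 genes was -0.044 and 95% lay between -29.7 and 34.7. With UNC0638 it was 86.4 points higher, where the median over 8766 genes was 6.31 and 95% lay between -18.8 and 52.1. Both line differences of Ly6a in percentile were above these ranges. These ranges, and those of width between lines, hold only genes with a peak in both lines. Of the protein-coding genes marked in CK1750, 7.47% with DMSO and 18.7% with UNC0638 had no peak in Tnm2 and are left out. Being above a range therefore does not set Ly6a apart from all genes marked in CK1750. By width, the ratio of CK1750 over Tnm2 was 1.84 with DMSO, inside the range of 95% of genes (0.477 to 2.28), and 8.20 with UNC0638, above it (0.649 to 2.84). In bulk chromatin, fewer cells with the mark and less of it per cell cannot be told apart. The percentile of Ly6a in Tnm2 with UNC0638 rests on 1 peak near the cutoff, and that list is the shortest of the 4. When only scores of at least 100 were used, Ly6a had no start-site peak there.

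The stretch shared by the peaks of all 4 lists at Ly6a was 592 bp long (chr15:74995180-74995771) and lay inside the gene. The 250 bases printed here come from it, at chr15:74995501-74995750 between exons, on the plus strand of GRCm38.p6. They are shown because it is the one stretch of the Ly6a locus that was called in every condition, and capitals mark the letters TGACTCA, a match to the AP-1 motif TGANTCA.

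Ly6a intronic stretch: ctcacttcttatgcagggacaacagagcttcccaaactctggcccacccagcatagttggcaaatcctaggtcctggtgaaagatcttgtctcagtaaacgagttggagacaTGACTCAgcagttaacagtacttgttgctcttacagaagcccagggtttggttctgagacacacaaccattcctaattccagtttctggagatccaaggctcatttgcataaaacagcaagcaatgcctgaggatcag

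This motif was searched on both strands and occurred in 10.6% of the central 250 bases of 1409 chromosome 15 peaks of CK1750 with DMSO. A match in letters is a description of the sequence and not evidence of binding.

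Ly6c1, a close relative of Ly6a whose product with that of Ly6c2 makes up the Ly6C antigen of monocytes and other white blood cells, lies 50.799 kb from Ly6a at chr15:75044018-75048830. Like Ly6a it had a broad peak over its start site in CK1750, of 4318 bp with DMSO (score 1312.25, percentile 91.0) and of 4434 bp with UNC0638 (score 1094.87, percentile 88.8). In Tnm2 with DMSO the start site lay under a peak of 1221 bp (score 180.32, percentile 58.0), and a weak peak of 401 bp lay 1.45 kb upstream (percentile 6.30). In Tnm2 with UNC0638 one peak of 1745 bp remained over the start site (score 104.65, percentile 44.1). Peaks covered 72.7, 79.7, 31.4 and 33.8% of the start-site window in the 4 lists. Ly6c1 was therefore broader and higher in rank in CK1750 than in Tnm2. Unlike Ly6a, it had a called peak over the start site in every list. Sequence at the start sites of both genes recurs in the genome, as given below. Short reads there cannot be assigned to either gene alone, so whether the genes differ at the start site itself is not settled by these calls.

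The Ly6c1 percentile differed by -2.14 between treatments in CK1750 and by -14.0 in Tnm2, both within the range of 95% of genes. The summed widths were nearly equal between treatments, with ratios of 1.03 in CK1750 and 1.08 in Tnm2. Between lines it was 32.9 points higher in CK1750 with DMSO and 44.8 points higher with UNC0638, again inside the range of 95% of genes. By width the ratio of CK1750 over Tnm2 with DMSO was 2.66. This was above the 95% range (0.477 to 2.28) of genes with a peak in both lists. With UNC0638 the ratio was 2.54, inside the range of such genes (0.649 to 2.84).

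**Figure D2:**
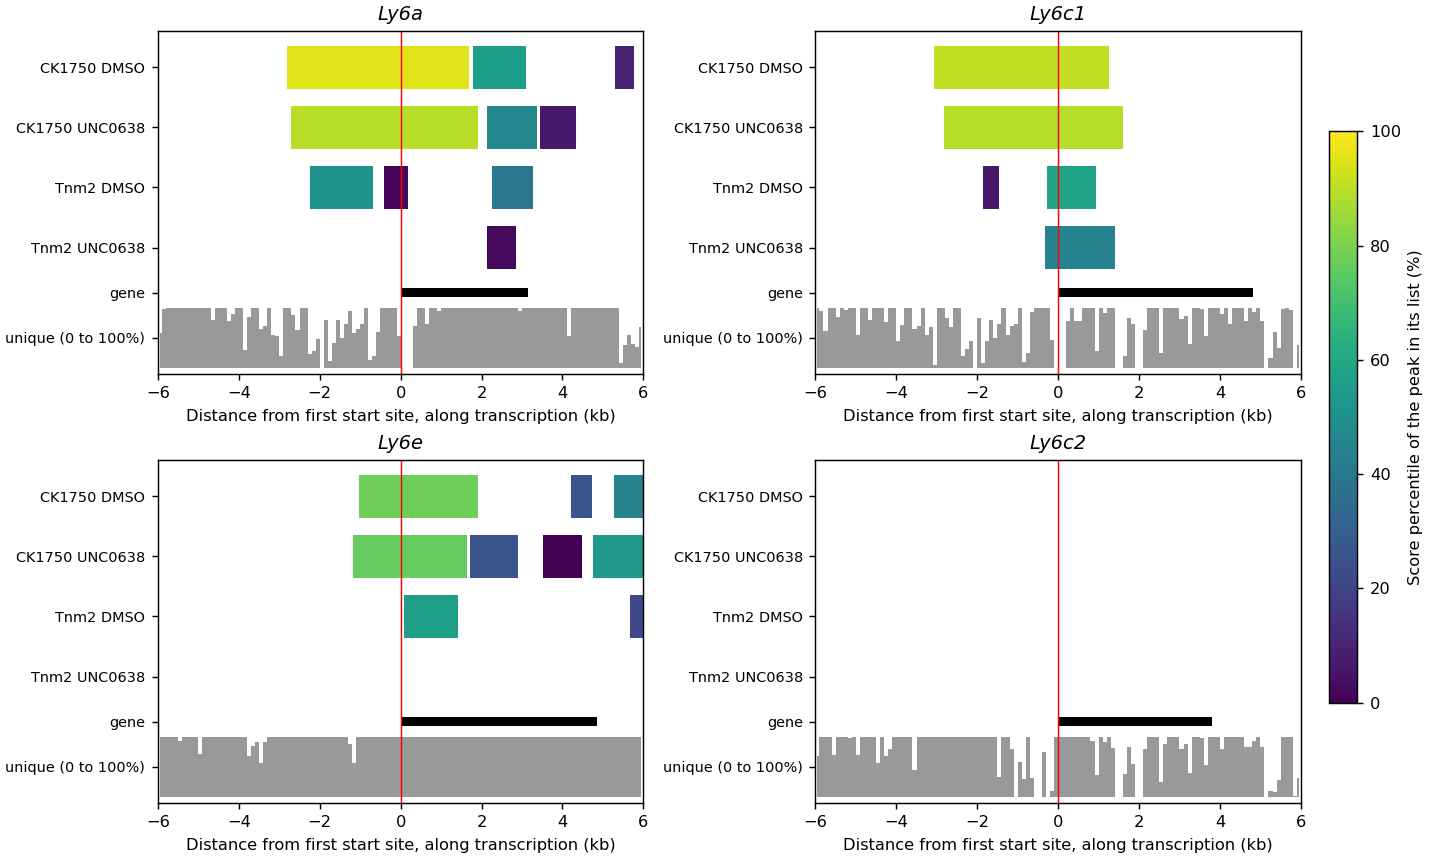
Peaks of the 4 lists (coloured bars, colour giving the score percentile) within 6 kb of the first annotated start site (red line) of Ly6a, Ly6c1, Ly6e and Ly6c2, with distance in kb along the direction of transcription and the gene body in black. The grey track gives, in bins of 100 bp, the percent of positions whose 75 bases occur once in the genome. CK1750 has one broad bar over the Ly6a and Ly6c1 start sites, and Ly6c2 has none in any list.

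Ly6a and Ly6c1 cannot be fully separated by short reads. Over the 1000 bases before their first start sites, the aligned parts of both genes were 98.1% identical (875 of 892 aligned bases). Of the positions in the start-site window, 76.0% at Ly6a and 61.4% at Ly6c1 began a stretch of 75 bases that occurs once in the genome. With stretches of 38 bases, the read length in the study's methods where the labels give 75, these shares were 57.7% and 38.2%. Of the 1298 positions at Ly6a that were not unique with 75 bases, 1252 (96.5%) recurred in the Ly6c1 window. At the start sites themselves uniqueness with 75 bases was 0%. This held at Ly6a in the 100 bp bins beginning 0, 100 and 200 bp after the first start site. At Ly6c1 it held in the bins beginning 100 bp before the first start site, at it and 100 bp after it. Shares over whole windows or whole peaks do not show this. The broad Ly6a peaks of CK1750 were unique over 70.1% of positions with DMSO and 70.9% with UNC0638, and those of Ly6c1 over 66.2% and 63.6%. In Tnm2 with DMSO, the Ly6a peaks over and upstream of the start site were unique over 60.7% and 51.8%, and those of Ly6c1 over 63.3% and 56.1%. The Ly6c1 peak of Tnm2 with UNC0638 was unique over 70.3%. How reads with more than 1 place were treated is not stated, and its part in the resemblance of both genes was not tested. The weaker peaks inside Ly6a were 99.4 to 100% unique in all 4 lists.

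Ly6c2, the other Ly6C gene (chr15:75108158-75111970), had no peak closer than 40.42 kb in CK1750 with DMSO, 41.189 kb with UNC0638, and 61.017 and 62.536 kb in Tnm2. Its window was 71.2% unique with 75 bases, higher than that of Ly6c1, and 51.7% unique with 38 bases. Uniqueness with 75 bases was uneven. It was 0% in the 100 bp bins beginning 600, 500 and 300 bp before the first start site. It was 75% in the bin beginning 400 bp before and 100% in the bin at the start site. Over the aligned 523 bases before the start sites, Ly6c1 and Ly6c2 were 82.4% identical. Promoters of 3 of the 9 members, Ly6c1, Ly6c2 and Ly6g, were matched in the RefSeq promoter table (GRCm38.p6). They are shown because the members they belong to were strongly marked (Ly6c1), never marked (Ly6c2) or weakly marked in CK1750 alone (Ly6g). Only the bases upstream of exons are given, at chr15:75048921-75049087 and chr15:75112067-75112221 on the minus strand and chr15:75155011-75155239 on the plus strand, with the letters TATAAA and CCAAT in capitals.

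Ly6c1 promoter: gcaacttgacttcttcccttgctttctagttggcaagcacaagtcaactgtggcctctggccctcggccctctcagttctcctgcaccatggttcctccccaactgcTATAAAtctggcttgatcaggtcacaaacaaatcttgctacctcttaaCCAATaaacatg
Ly6c2 promoter: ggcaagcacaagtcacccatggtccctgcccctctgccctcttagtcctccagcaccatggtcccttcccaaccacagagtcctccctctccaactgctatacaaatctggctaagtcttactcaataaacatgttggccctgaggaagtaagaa
Ly6g promoter: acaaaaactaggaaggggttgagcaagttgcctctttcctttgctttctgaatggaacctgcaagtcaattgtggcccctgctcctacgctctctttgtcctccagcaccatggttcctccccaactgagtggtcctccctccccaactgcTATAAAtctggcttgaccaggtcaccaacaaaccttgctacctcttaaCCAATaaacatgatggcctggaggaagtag

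The table holds 2 start sites for each of these genes, and the entry of the outer one is shown. Those of Ly6c1 and Ly6g each held 1 TATAAA and 1 CCAAT, at positions -143 and -95 from the start site of Ly6c1 and at -99 and -51 from that of Ly6g. In the entries of the inner start sites, Ly6g held the same letters at -167 and -119 and Ly6c1 held neither motif. Ly6c2 held neither in both entries. Of the 32851 promoters in the table, 13.6% held TATAAA and 37.4% held CCAAT in 300 bases. The other motifs searched, all on both strands, were GGGCGG, TTCNNNGAA, GAAANNGAA and TGANTCA, and none of these 3 genes held any of them in either table entry. They occurred in 35.7, 8.30, 8.56 and 7.81% of promoters.

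Ly6e, a member expressed in many tissues and known as an interferon-stimulated gene, lies on the plus strand at chr15:74955051-74959905, on the other side of Ly6a from Ly6c1. Its start site lay under a peak of 2925 bp in CK1750 with DMSO (score 530.37, percentile 77.8) and of 2811 bp with UNC0638 (score 543.31, percentile 76.5). The gene overlapped 1 further peak in CK1750 with DMSO, near its 3' end at percentile 26.6. With UNC0638 it overlapped 3 further ones, at percentiles 26.2, 0.033 and 53.1, of which the first and second reached the start-site window. In Tnm2 with DMSO a peak of 1320 bp began just inside the gene (score 169.73, percentile 56.2). In Tnm2 with UNC0638 no peak was found, and the nearest lay 10.893 kb from a start site. The start-site window was 99.1% unique with 75 bases, so Ly6e does not share the limit of Ly6a and Ly6c1. Peaks covered 45.0 and 68.9% of it in CK1750 with DMSO and UNC0638, and 20.3 and 0% in Tnm2.

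Ly6e was the 1 member of 3 with a start-site peak in Tnm2 with DMSO that had none with UNC0638, as did 17.7% of protein-coding genes. No member of the other 6 gained one, as did 1.18% of genes. With the 18794 highest-scoring peaks of each list, the number in the shortest, Ly6e had a peak in Tnm2 with DMSO and still none with UNC0638. In CK1750 the Ly6e percentile differed by -1.37 between treatments. Between lines with DMSO it was 21.6 points higher in CK1750, with a width ratio of 2.22, both inside the range of 95% of genes.

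Ly6i and Ly6g were marked weakly, and in CK1750 alone. Ly6i (chr15:74979534-74983430) had 1 peak of 543 bp, 0.376 kb upstream of its start site, in CK1750 with DMSO (score 57.94, percentile 11.9). The nearest peaks in the other lists lay 10.274, 4.7 and 4.755 kb away. Ly6g, which encodes the antigen used to identify mouse neutrophils (chr15:75155240-75159126), had a peak of 542 bp in CK1750 with DMSO (score 58.67, percentile 12.7, 2.309 kb upstream) and a separate one of 849 bp with UNC0638 (score 67.04, percentile 15.1, 1.233 kb upstream). In Tnm2 the nearest peak to Ly6g was 58.825 kb away with DMSO and 58.931 kb with UNC0638. All 3 of these peaks scored below 100 and were absent when that minimum was set, or when each list was reduced to 18794 peaks.

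Of the 5 members marked in CK1750 with DMSO, 1 (Ly6i) had no peak with UNC0638, where 4.85% of protein-coding genes had lost theirs, and none of the other 4 members gained one (3.03% of genes). With DMSO, 2 of those 5 members (Ly6g and Ly6i) had no peak in Tnm2, as did 7.47% of the protein-coding genes marked in CK1750. None of the 3 members marked in Tnm2 lacked one in CK1750 (6.34% of genes). With UNC0638, 2 of 4 members marked in CK1750 (Ly6e and Ly6g) had none in Tnm2, where 18.7% of genes did so, and neither of the 2 marked in Tnm2 was without one in CK1750 (3.21% of genes). With 2 to 6 members in each of these counts, 1 gene moves any share widely.

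Of the unmarked members, Ly6d, Ly6k and Ly6h lay outside the stretch from Ly6e to Ly6g. Ly6d, known as a marker of lymphoid progenitors and of some epithelia (chr15:74762056-74763620), had its nearest peaks 32.737, 10.395, 10.511 and 28.4 kb from the start site in the 4 lists. Ly6k (chr15:74796874-74799986), known for its role in sperm, had its nearest peaks 68.65, 46.308, 46.424 and 64.313 kb away. Ly6h (chr15:75551268-75567255), best known from brain, had 1 peak within 50 kb in each list, the one at the promoter of Zfp41, from 49.231 to 49.347 kb from its start site. The start-site windows of these 3 genes were 99.7 to 100% unique, so a lack of unique sequence does not describe them.

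**Figure D3:**
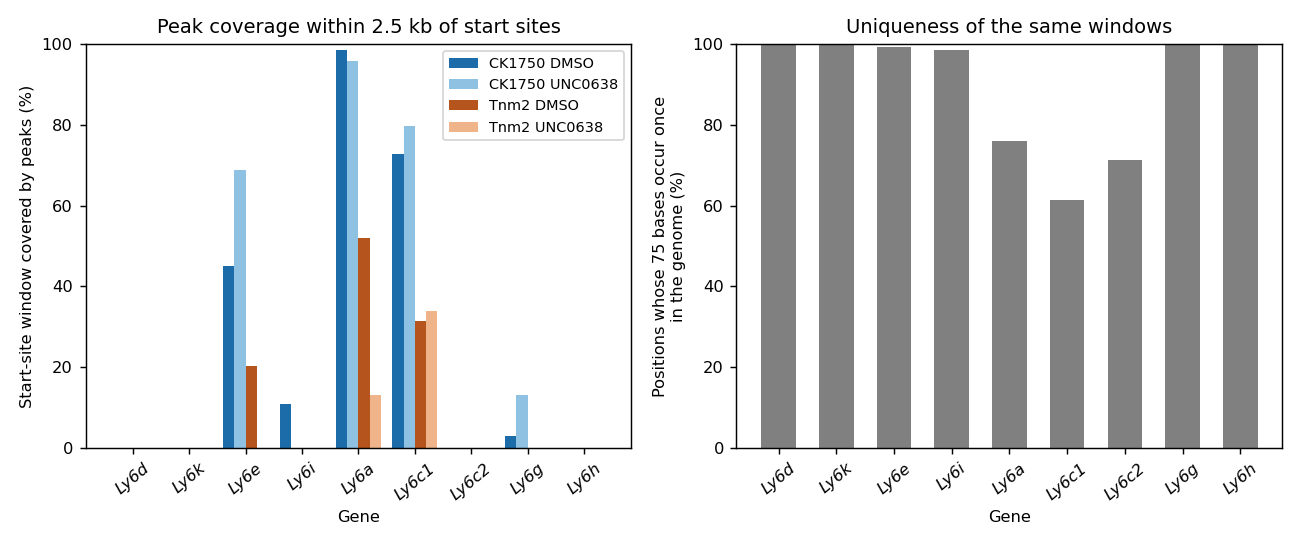
Left, percent of each member's start-site window (2.5 kb on either side of all start sites) covered by peaks, with 1 bar per list. Right, percent of positions in the same windows whose 75 bases occur once in the genome. Ly6a falls from 98.5% covered in CK1750 with DMSO to 13.2% in Tnm2 with UNC0638, and the windows of Ly6a, Ly6c1 and Ly6c2 are 76.0, 61.4 and 71.2% unique.

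Across all members and their 50 kb neighbourhoods, distinct peaks numbered 24, 30, 22 and 11 in the 4 lists. They covered 32885, 47523, 26140 and 17264 bp, or 5.89, 8.52, 4.68 and 3.09% of these stretches. Peaks covered 1.05, 1.16, 1.17 and 0.840% of the whole genome, which includes stretches far from genes. The share around other genes was not computed, so the higher coverage is not a trait shown for this cluster. The count in CK1750 depended on how neighbouring peaks were divided, since it was 15 with both treatments once peaks within 1 kb of each other were merged. Of the peaks, 6, 7, 6 and 2 lay at a member's start site, 11, 12, 12 and 8 at the start site of another gene, and 7, 11, 4 and 1 at none. In Tnm2 the number of peaks within 50 kb was lower with UNC0638 around Ly6a (8 and 4), Ly6e (11 and 5) and Ly6c1 (5 and 2). In CK1750 it was 12 and 11 around Ly6a, 16 and 18 around Ly6e and 5 and 4 around Ly6c1. The whole lists held 30641 and 18794 peaks in Tnm2 and 27367 and 24601 in CK1750, with DMSO and UNC0638. Neighbourhoods of these genes overlap, so some peaks were counted for more than 1 gene and the counts are not separate observations.

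**Figure D4:**
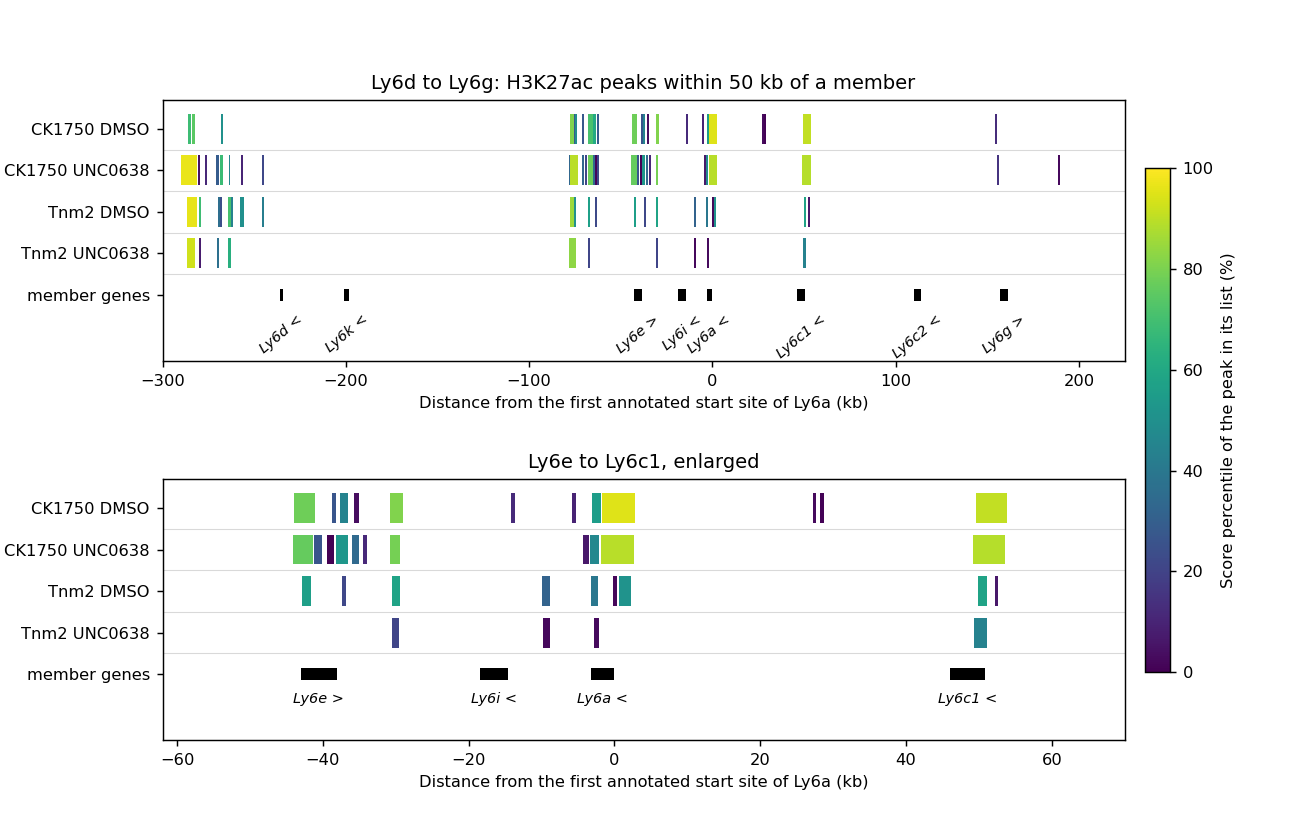
Peaks of the 4 lists within 50 kb of a member, drawn by distance in kb from the first annotated start site of Ly6a, with colour for the score percentile and the member genes below (arrows give their direction). The upper panel runs from Ly6d to Ly6g and the lower enlarges Ly6e to Ly6c1. Ly6h lies 569.224 kb from Ly6a and is not drawn. Between the bars at Ly6a and those at Ly6c1 there are only weak ones of CK1750 with DMSO (scores 51.47 and 50.38). Bars are absent around Ly6c2.

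Joined over the lists, these peaks formed 33 regions. Of these, 7 had a peak in all 4 lists, 4 in all but Tnm2 with UNC0638, 4 in both CK1750 lists only, 5 in CK1750 with DMSO only and 6 in CK1750 with UNC0638 only. A further 3 regions, over the start sites of Gm28976 (within 2.5 kb of Them6), Slurp1 and Lypd2, were missing from CK1750 with DMSO and present in the other lists. Of the 7 regions in all lists, 2 were at members (Ly6a and Ly6c1), and 1 lay away from any start site, between Ly6e and Ly6i at chr15:74967254-74968963. Its peaks stood at percentiles 81.1 and 79.0 in CK1750 with DMSO and UNC0638 and at 58.2 and 20.5 in Tnm2, an order of lists like that of Ly6a. The region was 100% unique with 75 bases. The stretch shared by all 4 lists was 881 bp long (chr15:74967546-74968426), and its 250 bases at chr15:74968123-74968372 (plus strand, GRCm38.p6) are shown because this was the one region away from start sites with a peak in every list. A further shared stretch of 17 bp away from start sites, at chr15:74920440-74920456, belonged to a region that also covers a start site. The printed bases held none of the 6 motifs.

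Distal stretch between Ly6e and Ly6i: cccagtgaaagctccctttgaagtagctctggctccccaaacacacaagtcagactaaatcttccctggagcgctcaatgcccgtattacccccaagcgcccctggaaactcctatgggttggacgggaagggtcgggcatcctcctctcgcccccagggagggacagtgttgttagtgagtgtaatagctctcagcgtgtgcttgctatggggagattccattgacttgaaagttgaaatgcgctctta

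Other genes beside the members showed other patterns. Of 12 other protein-coding genes within 50 kb of a member, 3, 6, 6 and 5 had a start-site peak in the 4 lists. Psca, a prostate stem cell antigen of the same family, had one in every list, at percentiles 74.2, 96.6, 96.3 and 92.7. The scores were 440.88, 2291.27, 1531.16 and 569.49. Slurp1, a secreted family member of epithelia, also had one in every list (percentiles 50.4, 68.2, 35.6 and 36.7). Both CK1750 values belonged to a region 1.364 kb from its start site, and both Tnm2 values to another region that covers it. Lypd2 had none in CK1750 with DMSO, and stood at 45.7 with UNC0638 and at 70.5 and 63.2 in Tnm2. Lynx1, which binds nicotinic acetylcholine receptors, and Them6 had none in CK1750 with DMSO and a weak peak with UNC0638, with scores of 77.93 and 61.73, both below 100. In Tnm2 Lynx1 went the other way, with a score of 113.1 with DMSO and no peak with UNC0638. The Tnm2 peaks counted for Them6, with scores of 269.98 and 55.56, belonged to a region that covers the start site of Gm28976. The CK1750 peak scored 61.73 covered the start site of Them6 itself, where Tnm2 had no peak, so these values are not of the same place. The zinc finger gene Zfp41, outside the family, was marked in all lists (percentiles 43.2, 30.0, 55.0 and 17.7). Psca and Slurp1 thus stood higher in rank with UNC0638 than with DMSO in CK1750, where Ly6a, Ly6c1 and Ly6e did not. For Psca the size of this difference depended on how peaks were divided. Its CK1750 peak with UNC0638 was 8636 bp wide and also covered start sites of Jrk and 4933427E11Rik. With DMSO the same stretch held 3 peaks, and the one scored for Psca was 1444 bp wide. The highest of the 3 stood at percentile 95.6, near the 96.6 with UNC0638.

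The wider Ly6/uPAR family was counted by lists of names. On chromosome 15, 3, 6, 6 and 5 of 13 other family genes had a start-site peak in the 4 lists. Elsewhere in the genome 6, 5, 3 and 3 of 20 had one. Among the latter Plaur, the urokinase receptor, Cd59a, an inhibitor of complement, and Spaca4 were marked in every list, with Plaur at percentiles 97.8, 98.3, 99.4 and 99.4. These genes were named after their values had been seen.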

How the data were processed

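H3K27ac ChIP-seq peak lists of 4 groups, CK1750 and Tnm2 cells each with DMSO or 1 µM UNC0638, were analysed. Groups followed the sample labels. The authors mapped reads to mm10 with Bowtie2 and ran MACS 1.4.2, keeping peaks with a P value below 1e-05. The labels give 75 bp reads and the study's methods 38 nucleotides from paired ends. The deposited score is -10 log10 of the P value per the file contents and depends on depth, which is unknown. The labels assign several samples to 1 merged list, so the libraries were taken to have been pooled. Which libraries a list holds, and whether input DNA was the control, are not given in the sources used here.

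Start sites and genes came from GENCODE release M21 (release 21, GRCm38). A peak counted with 1 bp of overlap. Percentiles were computed within each list, and shares were given with Wilson 95% intervals. Uniqueness was counted on 65 sequences of GRCm38.p6, on both strands. Upstream sequences were aligned locally. Python 3.11.15, numpy 2.4.6, pandas 2.3.3, scipy 1.17.1, Biopython 1.88, numba 0.67.0 and matplotlib 3.10.9 were used, and the overlap steps were tested on simulated lists. The text names all 9 members, the other protein-coding genes within 50 kb with a start-site peak, and counts of family and marker lists. The members and lists were chosen with earlier results of these data known. Alternatives were a score of at least 100, equal numbers of peaks, merged neighbours, other windows, start sites of basic transcripts and ranks by width.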

Additional observations from a re-analysis of the deposited data

Results flagged for a closer look

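Of 9 differences between UNC0638 and DMSO compared across lines, 4 went in opposite directions. None was tested, since each group had 1 list. The number of distinct peaks within 50 kb of a member differed by 6 in CK1750 (30 and 24) and by -11 in Tnm2 (11 and 22). The bases they covered differed by 14638 (CK1750) and -8876 (Tnm2). In the start-site window of Ly6e, the covered bases differed by 1556 for CK1750 and by -1320 for Tnm2. Peaks within 50 kb of Ly6e differed by 2 (CK1750) and -6 (Tnm2). The CK1750 difference in peak number was absent when peaks within 1 kb were merged (15 and 15). The list of Tnm2 with UNC0638 had the fewest peaks, 18794, and its part in these differences was not tested.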

How the results depend on the processing

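Of 74 values recomputed for 16 results, 46 stayed within 1.5 times the reported count or near the reported percentile and 28 moved. These are counts and percentiles, which have no sign to reverse. With scores of at least 100, members with a start-site peak were 3 in CK1750 with DMSO and 1 in Tnm2 with UNC0638, and peaks within 50 kb of a member were 14 and 15 in CK1750 and 4 in Tnm2 with UNC0638. Under this setting 0 members changed state in CK1750, and in Tnm2 1 kept its peak and 2 changed. The Ly6a percentile was 92.3 and 84.0 in CK1750 and 22.5 in Tnm2 with DMSO. With equal numbers of peaks, 3 members were marked in CK1750 with DMSO, 0 changed in CK1750, and peaks within 50 kb were 14 and 18 in CK1750. With neighbouring peaks merged they were 15 and 15. A window of 10 kb gave 11, 13, 10 and 4 peaks in the 4 lists. A start-site window of 1 kb left 1 member in Tnm2 with UNC0638, Ly6c1, so that in Tnm2 1 kept its peak and 2 changed. Ranked by width, Ly6a stood at 99.7, 99.2, 83.2 and 16.5. The fewer peaks under higher scores, fewer peaks or smaller windows follow from those settings. Ly6a in Tnm2 with UNC0638 had no percentile under 2 settings, scores of at least 100 and the 1 kb window, since no peak was left. No paired analysis was possible because each group has 1 pooled list and no test was made. For the same reason no replicate could be left out. Peaks near the cutoff can be lost or gained with a small change in depth, which is unknown here.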

Other observations

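The next family genes beyond Ly6g, chosen after their values were seen, stood higher in Tnm2 than in CK1750, where Ly6a stood lower. BC025446, named Ly6g2 in RefSeq and matched by position (chr15:75216376-75222661), had a start-site peak in all 4 lists. The scores were 63.24 and 164.43 in CK1750 (DMSO, then UNC0638) against 643.71 and 455.43 in Tnm2. The percentiles were 17.2, 47.4, 86.4 and 89.6. Ly6f (chr15:75268421-75272235) had none in CK1750 with DMSO, and stood at percentile 25.4 with UNC0638 and at 73.0 and 57.0 in Tnm2. These differences were not tested, and how unique the sequence at these genes is was not reported.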
